A study of Mus musculus with 11 samples.

Results

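Integrins are the main receptors by which animal cells hold on to extracellular matrix and to each other. The genes described here are the integrin chains and the core of the focal adhesion, the protein complex that links integrins to actin filaments. They were chosen by symbol: every gene named as an integrin alpha or beta chain, and 16 genes for talins, kindlins, the ILK-PINCH-parvin complex, vinculin, zyxin, paxillin and the focal adhesion kinases. The table held 41 of them among 15274 genes, namely 26 integrin chains and 15 of the other genes, and Fermt1 was not analysed here. All 41 passed the filter on low values and were tested.

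An integrin is a pair of an alpha and a beta chain, and the pair sets the ligand: collagens, laminins, proteins with an RGD motif such as fibronectin, or adhesion receptors on other cells. Talins and kindlins bind the tail of the beta chain and switch the integrin to its active form. In heart muscle, integrins of the Itgb1 and Itga7 chains tie the cardiomyocyte to laminin, whereas the pairs of Itgb2 with Itgal, Itgam, Itgax or Itgad are found on leukocytes.

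Gene expression was measured by RNA sequencing of total RNA from hearts of 8-week mice of 2 inbred strains, C3H/HeJ (C3H) and C57BL/6J (B6), with titles that carry D7. There were 2 injured and 3 uninjured regions of C3H hearts and 3 injured and 3 uninjured regions of B6 hearts, 11 libraries in all. They came from 6 mice, and 5 of these gave both regions, with C3H mouse 3 giving only an uninjured region. Replicates were separate mice, no transgene or drug is named for any group, and the sources do not say how hearts were injured.

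Between 9699985 and 22138459 reads per library were assigned to genes. Values are normalised counts, the reads of a gene divided by the size factor of its library. Changes are log2 fold changes of normalised count + 1, injured minus uninjured or C3H minus B6, with the standard error (SE) of a limma fit over all libraries. A gene is said to have changed where its two-sided p, adjusted by Benjamini-Hochberg over all 14751 genes tested, was below 0.05. All C3H libraries had high Xist (1840 to 8478) and near-zero Ddx3y (0.888 to 3.46), and all B6 libraries had low Xist (3.14 to 12.2) and high Ddx3y (1429 to 2221). Strain and sex therefore cannot be told apart in any comparison of C3H with B6.

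Of the 41 genes, the leukocyte integrin chains Itgax, Itgad and Itgb2 had the largest changes in C3H injured regions. Itgam, Itgax and Itgad lie next to each other on chromosome 7 in that order in the reference annotation. Promoters are shown for the leukocyte genes below that the RefSeq table lists with a searched motif (build GRCm38.p6, 250 bases before to 50 bases after the start). They are Itgam (chr7:128062390-128062689, plus strand), Itgax (chr7:128129300-128129599, plus strand), Itgb7 (chr15:102231886-102232185, minus strand) and Parvg (chr15:84324470-84324769, plus strand), each written 5′ to 3′ on the strand of its gene. Capitals mark GAGGAA or its reverse complement TTCCTC, the core bound by the myeloid factor PU.1, and TGANTCA, the AP-1 motif.
Itgam: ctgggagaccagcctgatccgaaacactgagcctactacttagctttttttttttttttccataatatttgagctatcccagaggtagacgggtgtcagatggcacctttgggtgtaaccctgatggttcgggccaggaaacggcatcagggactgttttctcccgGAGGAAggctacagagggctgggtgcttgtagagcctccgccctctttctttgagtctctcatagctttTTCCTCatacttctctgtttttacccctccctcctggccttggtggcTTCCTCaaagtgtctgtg
Itgax: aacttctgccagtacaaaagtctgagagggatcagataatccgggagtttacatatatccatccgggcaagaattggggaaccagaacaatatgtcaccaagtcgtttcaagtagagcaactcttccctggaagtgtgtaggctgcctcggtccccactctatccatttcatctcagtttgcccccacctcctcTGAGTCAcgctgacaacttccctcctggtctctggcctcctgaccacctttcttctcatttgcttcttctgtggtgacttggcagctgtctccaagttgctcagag
Itgb7: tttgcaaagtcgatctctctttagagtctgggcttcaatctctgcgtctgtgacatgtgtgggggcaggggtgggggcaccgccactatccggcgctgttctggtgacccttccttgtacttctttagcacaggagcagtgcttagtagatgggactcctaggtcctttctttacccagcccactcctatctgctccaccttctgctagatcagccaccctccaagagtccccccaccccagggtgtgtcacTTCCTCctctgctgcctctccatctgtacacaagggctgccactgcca
Parvg: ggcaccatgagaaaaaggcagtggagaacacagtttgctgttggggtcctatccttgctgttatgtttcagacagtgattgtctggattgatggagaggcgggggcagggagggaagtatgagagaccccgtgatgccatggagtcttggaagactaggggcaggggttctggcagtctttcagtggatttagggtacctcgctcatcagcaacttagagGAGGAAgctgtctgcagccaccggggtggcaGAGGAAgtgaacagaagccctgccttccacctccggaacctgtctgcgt
Both strands were searched, and these motifs do not overlap in the 4 windows. The Itgam window held 3 GAGGAA matches and no TGANTCA, and the Itgax window held 1 TGANTCA and no GAGGAA. Parvg held 2 GAGGAA matches here and none in its other listed promoter, and Itgb7 held 1. The 4 windows were picked because they held a match. The listed windows of the leukocyte genes Fermt3 and Itga4 held none of the searched motifs. Itgb2, Itgal, Itgad, Itgb3 and Ptk2b had no listed promoter. Over all members, 33 promoters of 27 genes were listed. GAGGAA was in 36.4% of them, against 28.3% of all 32851 promoters of the same length, and TGANTCA was in 12.1% against 7.81%. The CArG box, bound by serum response factor, was in the windows of Itgb6, Fermt2 and Vcl, 9.09% of the members' promoters against 1.63% of all. These are matches of letters only.

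In injured regions of C3H hearts, 18 of the 41 genes rose and 3 fell. Over all genes tested, 15.3% rose and 15.4% fell, 30.7% in all. The median change was 1.07 over the 41 genes and 0.015 over all genes. Of the 26 integrin chains 14 rose and 1 fell, and of the 15 adhesion genes 4 rose and 2 fell. The injured region was above the uninjured region of the same heart in both mice for 29 genes and below it in both for 6, against 39.6% and 40.3% of all genes. All C3H injured values lay above all C3H uninjured values for 24 genes and below them for 5, against 29.6% and 29.7% of all genes. The plot of single libraries by role shows both C3H injured libraries above the other 9 at Itgad, Itgam, Itgax and Itgb2, but not at Itgal.

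**Figure D1:**
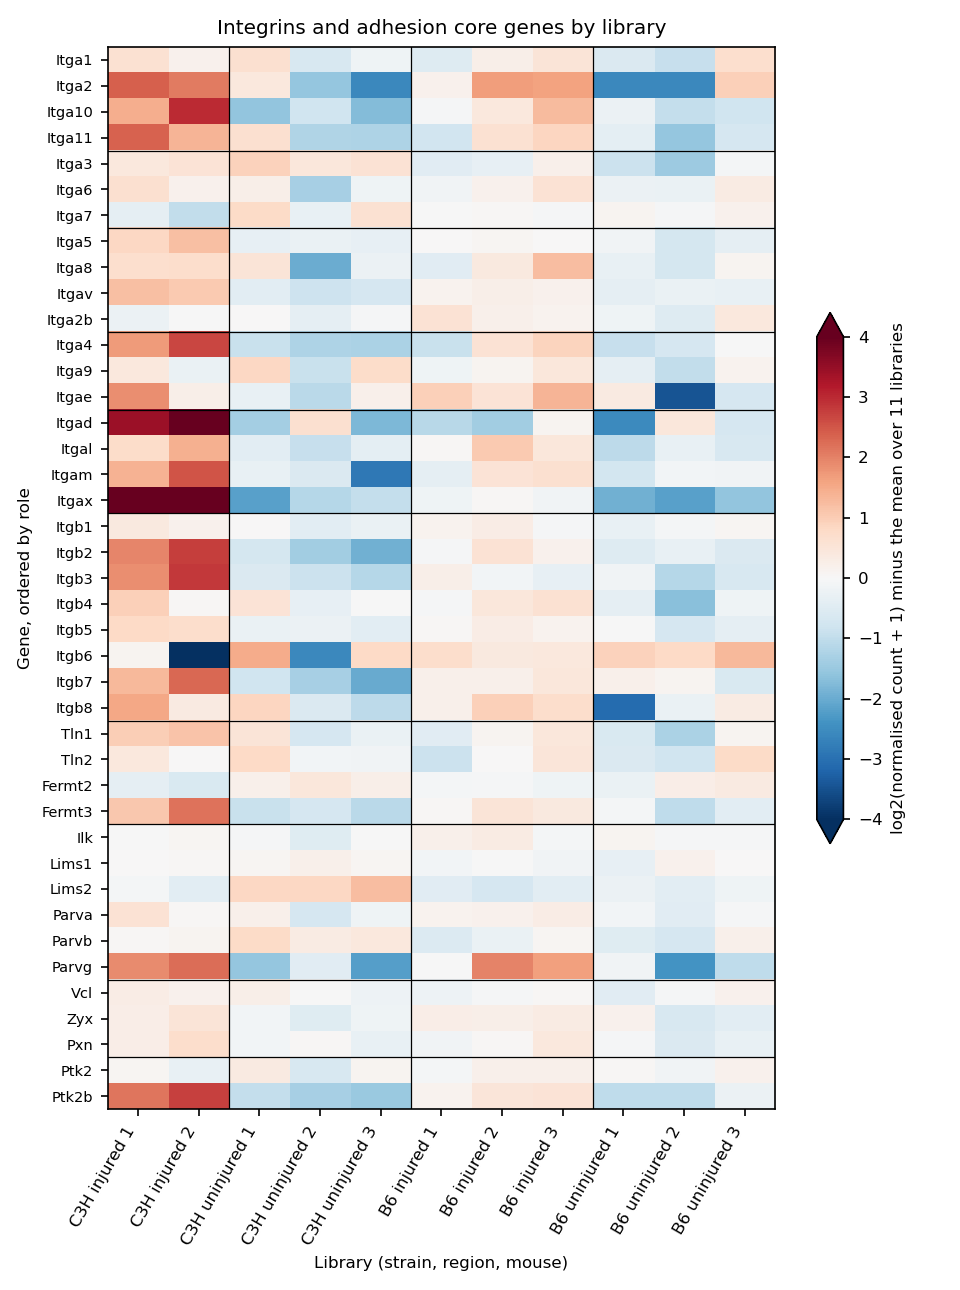
Values of the 41 genes in each of the 11 libraries, as log2(normalised count + 1) minus the gene's mean over all libraries, with genes in rows by role and libraries in columns by group (colours saturate beyond 4). The C3H injured libraries are highest at Itgad, Itgax, Itgb2, Itgb3 and Ptk2b, and Itgb6 is low in both regions of C3H mouse 2.

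The 4 alpha chains that pair with Itgb2 all rose in C3H injured regions. Itgax, the alpha chain known as CD11c, had normalised counts of 2765 and 5132 in C3H injured regions and of 22.8, 48.2 and 54.2 in C3H uninjured regions. In B6 it had 93.8, 109 and 97.1 in injured regions and 27.2, 22.8 and 35.4 in uninjured regions. All C3H injured values lay above every other library, and in B6 the injured values also lay above all uninjured ones. The C3H change was 6.55 (SE 0.40, limma adjusted p = 9.35e-06), 94.0-fold, and the largest of the 41 genes.

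Itgam, the alpha chain CD11b of myeloid cells, had 3644 and 7909 in C3H injured regions and 1136, 931 and 190 in C3H uninjured regions, the last value well below those of the other mice. Its B6 values were 1073, 2042 and 2150 in injured and 841, 1277 and 1266 in uninjured regions, which overlapped. In C3H the change was 3.19 (SE 0.64, adjusted p = 0.00332). It did not pass without C3H injured mouse 2 (2.63, adjusted p = 0.0540).

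Itgad, the alpha chain CD11d, had 137 and 245 in C3H injured regions and 3.96, 18.8 and 2.66 in C3H uninjured regions. In B6 it stayed low, with 4.89, 3.93 and 12.9 in injured regions and 1.18, 16.6 and 7.07 in uninjured regions. Both C3H injured values were above all other libraries, and the C3H change was 4.69 (SE 0.93, adjusted p = 0.00327).

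Itgal, the alpha chain of LFA-1 on lymphocytes and other leukocytes, had 139 and 228 in C3H injured regions and 62.4, 44.0 and 63.0 in C3H uninjured regions. The B6 libraries gave 87.2, 173 and 115 in injured regions and 40.2, 68.4 and 53.0 in uninjured regions. Injured values lay above all uninjured values in each strain. Its C3H change of 1.66 (SE 0.38, adjusted p = 0.00737) was the smallest of the 4 chains, and it did not pass without C3H injured mouse 2 (1.31, adjusted p = 0.105).

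Itgb2, the beta chain that these 4 share, had 5324 and 9500 in C3H injured regions and 849, 521 and 366 in C3H uninjured regions. For B6, values were 1327, 2072 and 1556 in injured regions and 960, 1126 and 923 in uninjured regions. Both C3H injured values were above those of all other libraries. The C3H change was 3.70 (SE 0.35, adjusted p = 4.09e-05), 13.0-fold.

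Of the 8 beta chains 4 rose in C3H injured regions, Itgb2 among them, and none fell. Itgb3, which pairs with Itgav on many cells and osteoclasts and with Itga2b on platelets, had 658 and 1271 in C3H injured regions and 121, 97.4 and 80.8 in C3H uninjured regions. In B6 it had 213, 165 and 142 in injured regions and 163, 80.9 and 115 in uninjured regions, which overlapped. In C3H the change was 3.20 (SE 0.37, adjusted p = 0.000148). Its platelet partner Itga2b did not pass. Itga2b had 32.9 and 38.2 in C3H injured regions and 39.6, 30.4 and 37.3 in C3H uninjured regions (change -0.0048, SE 0.38, adjusted p = 0.995).

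Itgb7, which pairs with Itga4 and Itgae on lymphocytes and other leukocytes, had 210 and 418 in C3H injured regions and 48.5, 33.5 and 20.4 in C3H uninjured regions. Its B6 values were 98.7, 97.4 and 116 in injured regions and 98.2, 91.2 and 55.4 in uninjured regions. The C3H uninjured values were the lowest of the 4 groups and the C3H injured values the highest. The C3H change was 3.16 (SE 0.42, adjusted p = 0.000371).

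Itgb5, a partner of Itgav in vitronectin binding, had 7305 and 6814 in C3H injured regions and 3482, 3554 and 3090 in C3H uninjured regions. The B6 libraries gave 4297, 5107 and 4631 in injured regions and 4158, 2611 and 3236 in uninjured regions. The groups did not overlap in either strain, and the C3H change was 1.07 (SE 0.22, adjusted p = 0.00440). Itgb1, the common beta chain that pairs with most of the alpha chains here, had 15388 to 17742 in C3H injured regions and 10148 to 13690 in C3H uninjured regions. Its change of 0.51 (SE 0.24, adjusted p = 0.133) did not pass, but it passed after quantile normalization (1.00, adjusted p = 0.0107).

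Itgb4 and Itgb6, beta chains best known from epithelia, and Itgb8, an activator of latent TGF-beta, did not pass in C3H, with changes of 0.43 for Itgb4 (SE 0.48) and 1.19 for Itgb8 (SE 0.91). Itgb6 had 221 and 9.19 in C3H injured regions and 570, 33.5 and 359 in C3H uninjured regions. Both low values came from mouse 2, whose injured region was below its uninjured region as in mouse 1. Its change was -2.01 (SE 1.18, adjusted p = 0.213), and it passed with animal as a fixed block (-1.56, SE 0.28, adjusted p = 0.00185). It also passed without C3H injured mouse 1 (-4.24, adjusted p = 0.0231) and without C3H uninjured mouse 2 (-3.25, adjusted p = 0.0315).

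**Figure D2:**
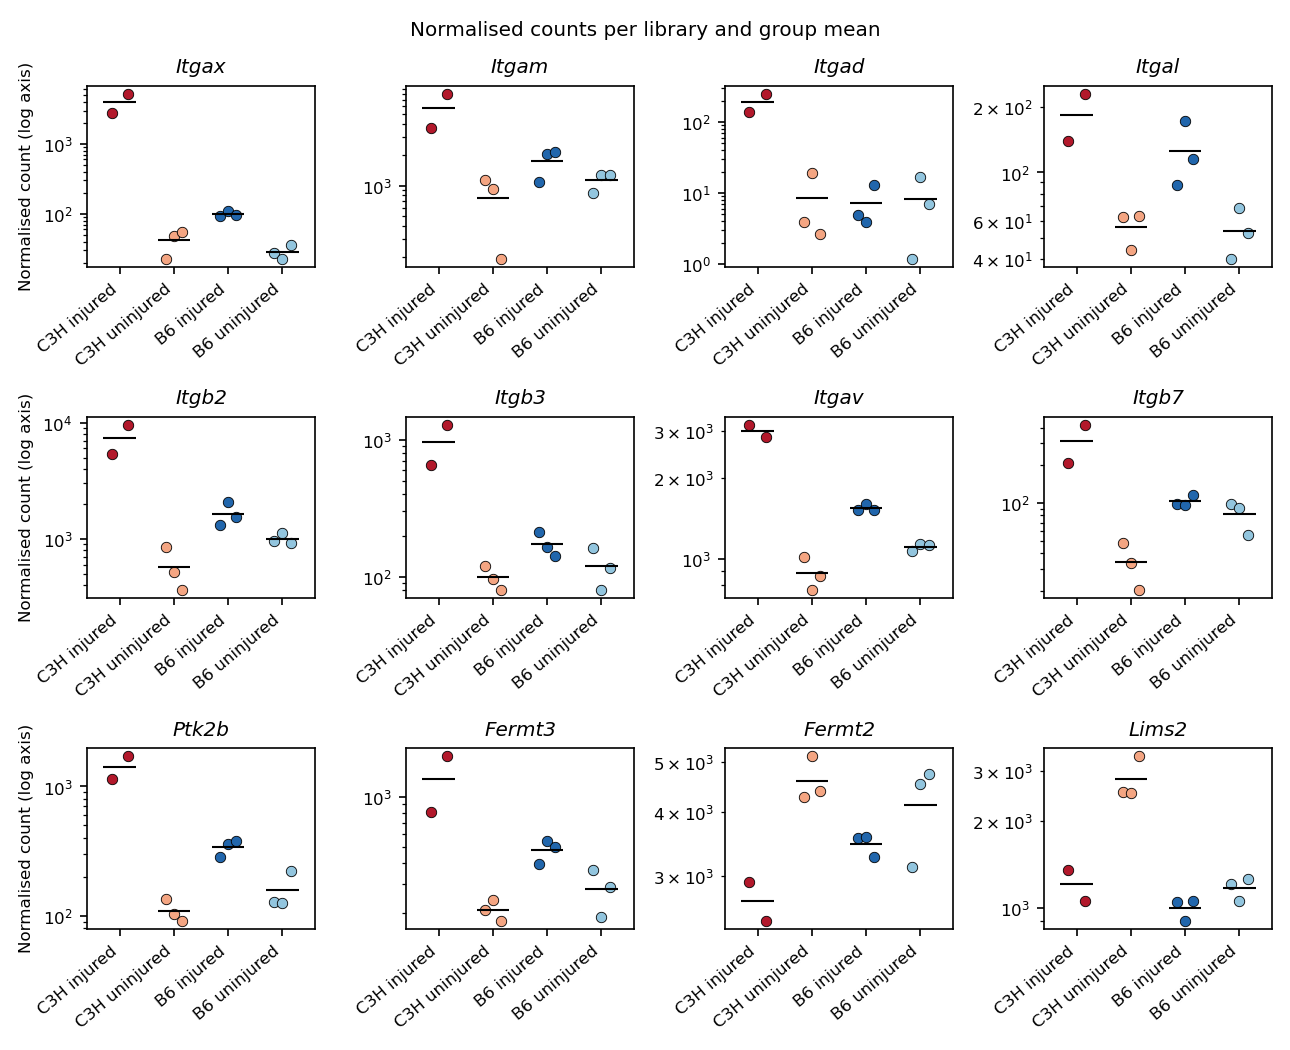
Normalised counts of 12 genes in each library on log axes, with C3H injured, C3H uninjured, B6 injured and B6 uninjured regions from left to right, points for libraries and bars for group means. The C3H injured libraries lie above all others for every gene shown except Itgal, where 1 B6 injured library reaches between them, and Fermt2 and Lims2, where they lie below the C3H uninjured libraries.

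Among the alpha chains for RGD ligands, Itgav and Itga5 rose in C3H injured regions and Itga8 and Itga2b did not pass. Itgav, the alpha chain of the vitronectin receptors, had 3142 and 2851 in C3H injured regions and 1016, 767 and 865 in C3H uninjured regions. For B6, values were 1518, 1603 and 1523 in injured regions and 1074, 1134 and 1123 in uninjured regions. Libraries of a group lay close together, injured values were above all uninjured ones in each strain, and the C3H change was 1.77 (SE 0.19, adjusted p = 8.96e-05).

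Itga5, the alpha chain of the fibronectin receptor, had 2983 and 3855 in C3H injured regions and 1341, 1414 and 1353 in C3H uninjured regions. In B6 it had 1725, 1770 and 1719 in injured regions and 1519, 1039 and 1313 in uninjured regions. Again the groups did not overlap in either strain, with a C3H change of 1.31 (SE 0.21, adjusted p = 0.00103). Itga8, a fibronectin and nephronectin receptor chain of mesenchymal cells, had 151 and 156 in C3H injured regions and 23.0 to 137 in C3H uninjured regions (change 1.26, SE 0.64, adjusted p = 0.156). It passed without C3H uninjured mouse 1 (1.80, adjusted p = 0.0420).

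Of the 4 alpha chains for collagen, 3 rose in C3H injured regions. Itga10, a chain known from cartilage, had 105 and 307 in C3H injured regions and 11.9, 20.9 and 10.7 in C3H uninjured regions. Its B6 values were 35.9, 51.1 and 91.1 in injured regions and 31.9, 18.7 and 21.2 in uninjured regions. Both strains had higher values in every injured region, and the C3H change was 3.60 (SE 0.55, adjusted p = 0.000793).

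Itga11, the collagen receptor chain of fibroblasts, had 815 and 408 in C3H injured regions and 249, 68.0 and 67.5 in C3H uninjured regions. The B6 libraries gave 93.0, 243 and 286 in injured regions and 121, 53.9 and 99.0 in uninjured regions, where mouse 1 was lower in its injured region. In C3H the change was 2.45 (SE 0.63, adjusted p = 0.0122), and it did not pass without C3H injured mouse 1 (1.95, adjusted p = 0.114).

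Itga2, the collagen receptor chain of platelets and epithelia, was close to the limit of detection. It had 30.3 and 24.03 in C3H injured regions and 6.93, 1.05 and 0.00 in C3H uninjured regions, 69 reads against 8. For B6, values were 5.71, 18.1 and 17.2 in injured regions and 0.00, 0.00 and 10.6 in uninjured regions. The C3H change of 3.47 (SE 1.16, adjusted p = 0.0393) failed in 9 of the 21 alternatives, 6 of them without C3H injured mouse 1 or 2, C3H uninjured mouse 2 or 3, or B6 injured mouse 2 or 3 (adjusted p from 0.0514 to 0.165). Itga1, the other collagen chain, had 979 and 712 in C3H injured regions and 410 to 989 in C3H uninjured regions, which overlapped (change 0.45, SE 0.48, adjusted p = 0.505).

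Of the 3 alpha chains for laminin 1 fell and none rose. Itga7, the laminin receptor chain of striated muscle, had 2217 and 1422 in C3H injured regions and 4835, 2274 and 4339 in C3H uninjured regions. In B6 it had 2773, 2928 and 2756 in injured regions and 3070, 2740 and 3186 in uninjured regions. It fell in C3H by 1.03 (SE 0.30, adjusted p = 0.0239), and the injured value of mouse 1 was just below the uninjured value of mouse 2.

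The Itga7 call was lost without C3H injured mouse 2 (-0.71, adjusted p = 0.235), without C3H uninjured mouse 1 (-0.82, adjusted p = 0.0642), without C3H uninjured mouse 3 (-0.90, adjusted p = 0.0803) and in a fit of the C3H groups alone (-1.03, adjusted p = 0.0834). Itga6, a laminin receptor chain of epithelial and endothelial cells, had 2462 and 1764 in C3H injured regions and 1834, 626 and 1404 in C3H uninjured regions. Its change of 0.83 (SE 0.40, adjusted p = 0.134) did not pass. It passed with animal as a fixed block (0.96, SE 0.26, adjusted p = 0.0147) and as a random block (0.88, adjusted p = 0.0343). It also passed without C3H uninjured mouse 1 (1.15, adjusted p = 0.0405). Itga3, the laminin receptor chain of epithelia, had 302 and 336 in C3H injured regions and 314 to 433 in C3H uninjured regions (change -0.17, SE 0.36, adjusted p = 0.746).

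Itga4, the chain by which leukocytes bind Vcam1 and fibronectin, had 612 and 1191 in C3H injured regions and 99.0, 78.5 and 77.3 in C3H uninjured regions. Its B6 values were 99.5, 280 and 347 in injured regions and 98.2, 116 and 184 in uninjured regions, which overlapped. The C3H change was 3.32 (SE 0.49, adjusted p = 0.000660). Itga9, a tenascin and Vcam1 receptor chain, and Itgae, a chain of T cells that reside in tissues, did not pass (-0.16, SE 0.48, and 1.45, SE 0.96, with adjusted p of 0.828 and 0.273).

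Among the activators of integrins, the leukocyte and the widely expressed kindlin went opposite ways in C3H. Fermt3, the kindlin of blood cells, had 806 and 1754 in C3H injured regions and 208, 242 and 180 in C3H uninjured regions. The B6 libraries gave 395, 547 and 502 in injured regions and 366, 189 and 289 in uninjured regions. Injured values were above all uninjured ones in each strain, and the C3H change was 2.51 (SE 0.35, adjusted p = 0.000498).

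Fermt2, the kindlin of heart muscle and other solid tissues, had 2920 and 2458 in C3H injured regions and 4268, 5127 and 4387 in C3H uninjured regions. For B6, values were 3554, 3574 and 3273 in injured regions and 3131, 4521 and 4736 in uninjured regions, which overlapped. It fell in C3H by 0.77 (SE 0.22, adjusted p = 0.0219). The call was lost without C3H injured mouse 1 (adjusted p = 0.0565), C3H injured mouse 2 (adjusted p = 0.174) or C3H uninjured mouse 2 (adjusted p = 0.0601), and after quantile normalization (-0.53, adjusted p = 0.0801).

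Tln1, the talin of most cells, had 7387 and 8238 in C3H injured regions and 5417, 2376 and 3118 in C3H uninjured regions, and it had 2722, 4053 and 5128 in B6 injured regions and 2472, 1551 and 4041 in B6 uninjured regions, which overlapped. Its C3H change of 1.19 (SE 0.42, adjusted p = 0.0495) was at the threshold and failed in 11 of the 21 alternatives, 7 of them without C3H injured mouse 1 or 2, C3H uninjured mouse 2 or 3, B6 injured mouse 2 or 3, or B6 uninjured mouse 1 (adjusted p from 0.0513 to 0.210). Tln2, the talin enriched in striated muscle, had 1570 and 1178 in C3H injured regions and 1052 to 2024 in C3H uninjured regions (change 0.05, SE 0.49, adjusted p = 0.951).

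In the ILK-PINCH-parvin complex, which couples beta chains to actin, 1 of 6 genes rose and 1 fell in C3H. Parvg, the parvin of blood cells, had 137 and 177 in C3H injured regions and 11.9, 26.2 and 7.10 in C3H uninjured regions. In B6 it had 35.9, 148 and 117 in injured regions and 33.1, 6.22 and 17.7 in uninjured regions. The injured values lay above all uninjured ones in each strain, although by little in B6 mouse 1. In C3H the change was 3.47 (SE 0.74, adjusted p = 0.00484), and it did not pass without C3H injured mouse 2 (3.29, adjusted p = 0.0534).

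Lims2, which encodes PINCH2, had 1355 and 1059 in C3H injured regions and 2526, 2517 and 3364 in C3H uninjured regions. Its B6 values were 1047, 902 and 1060 in injured regions and 1207, 1056 and 1257 in uninjured regions. The C3H uninjured libraries stood above all others, and the gene fell in C3H injured regions by 1.21 (SE 0.21, adjusted p = 0.00173). Ilk, Lims1 (which encodes PINCH1), Parva and Parvb had C3H changes of 0.22, -0.09, 0.53 and -0.42, with adjusted p from 0.158 to 0.766.

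The adaptors Vcl, Zyx and Pxn had C3H changes of 0.23, 0.65 and 0.59 and none passed, with adjusted p of 0.475, 0.0662 and 0.0846. With animal as a random block Zyx (0.67, adjusted p = 0.0250) and Pxn (0.56, adjusted p = 0.0465) passed. Zyx also passed without B6 uninjured mouse 1 (adjusted p = 0.0326), after quantile normalization (0.77, adjusted p = 0.0329) and with DESeq2 (0.64, adjusted p = 0.0499). Ptk2b (PYK2), the form of leukocytes, osteoclasts and neurons, had 1137 and 1713 in C3H injured regions and 134, 104 and 91.5 in C3H uninjured regions. The B6 libraries gave 285, 361 and 379 in injured regions and 129, 127 and 220 in uninjured regions. Every injured value was above every uninjured one in each strain, and the C3H change was 3.68 (SE 0.31, adjusted p = 2.64e-05). Ptk2, the focal adhesion kinase of most cells, had 824 and 635 in C3H injured regions and 508 to 1000 in C3H uninjured regions (change -0.06, SE 0.28, adjusted p = 0.879).

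As limits, the C3H call count ranged from 14 without C3H injured mouse 2 to 24 with animal as a random block, where 41.8% of all genes passed. Of the 21 calls, 13 passed in all 21 alternatives.

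**Figure D3:**
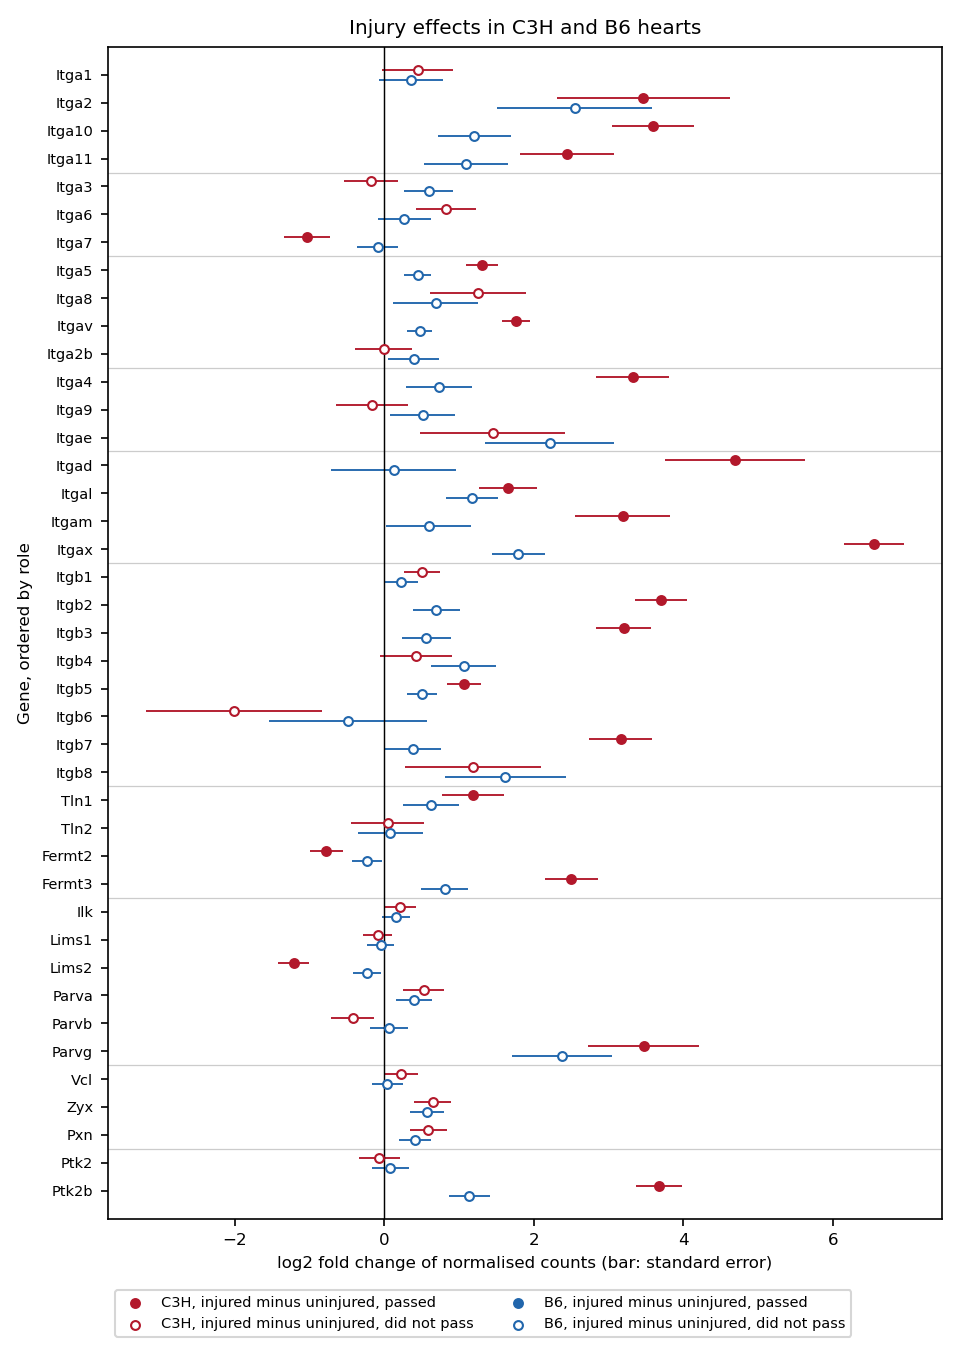
Log2 fold change of injured over uninjured regions with its standard error for the 41 genes, C3H in red and B6 in blue, with filled points for genes past the threshold. In C3H 18 genes are filled to the right of 0 and 3 to the left, and in B6 none is filled although 36 points lie right of 0.

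In injured regions of B6 hearts no gene of the 41 passed, against 0.0136% of all genes tested. By limma 14 of the 41 had an unadjusted p below 0.05, against 13.4% of all genes. edgeR called 0 and DESeq2 called 1, Itgax, against 0.0136% and 0.305% of all genes. The 41 changes were positive for 36 genes, against 51.2% of all genes, with a median of 0.51, against 0.013 over all genes. For 24 genes the injured region was above the uninjured region in all 3 hearts, against 23.0% of all genes, and for 2, Itgb6 and Lims2, it was below in all 3, against 24.2% of all genes. All B6 injured values lay above all B6 uninjured values for 14 genes and below them for 1, Itgb6, against 9.83% and 7.69% of all genes.

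The largest B6 changes were those of Itga2 (2.55, SE 1.03), Parvg (2.38, SE 0.66), Itgae (2.22, SE 0.86) and Itgax (1.80, SE 0.36), with adjusted p of 0.365, 0.364, 0.364 and 0.307. Itgax was 1.75, 2.21 and 1.43 higher in the injured region of the 3 B6 hearts on the log2 scale. It passed with animal as a fixed block (adjusted p = 0.0264) and as a random block (adjusted p = 0.0249), where 0.136% and 0.108% of all genes passed. Itgae had 20.4, 14.9 and 27.5 in B6 injured regions and 13.0, 0.00 and 5.89 in B6 uninjured regions, few counts in every library. B6 uninjured mouse 2, the library with the fewest reads (9699985), had 0 reads of Itga2, 3 of Parvg and 0 of Itgae. Its heart gave the largest paired difference of the 3 B6 hearts for each of these genes (4.25, 4.36 and 3.99).

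Over both strains, 22 of the 41 genes were higher in the injured region in all 5 hearts with both regions, against 18.6% of all genes.

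The injury effect was larger in C3H than in B6 for 6 of the 41 genes by the interaction term, and smaller for none. Of all genes tested 1.57% passed, 1.50% larger and 0.0678% smaller in C3H. The differences were 4.76 for Itgax (SE 0.54, adjusted p = 0.00364), 3.00 for Itgb2 (SE 0.47, adjusted p = 0.00985), 2.78 for Itgb7 (SE 0.57, adjusted p = 0.0316), 2.64 for Itgb3 (SE 0.49, adjusted p = 0.0226), 2.54 for Ptk2b (SE 0.42, adjusted p = 0.0124) and 1.29 for Itgav (SE 0.25, adjusted p = 0.0264). Itgb2 pairs with Itgax, and Itgb3 with Itgav. Itgb2, Itgb7 and Itgav also had lower uninjured values in C3H than in B6, without overlap, which is part of their difference. Itga4 (2.59, SE 0.66, adjusted p = 0.0794), Itgad (4.57, SE 1.25, adjusted p = 0.109) and Itgam (2.60, SE 0.85, adjusted p = 0.184) did not pass.

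With animal as a fixed block Itga4 (2.53, adjusted p = 0.0184) and Itgam (1.79, adjusted p = 0.0292) also passed, 8 genes in all, where 3.33% of all genes passed, and as a random block 11 passed, where 5.27% of all genes did. The 5 genes added by the random block were Itga4, Itga10, Itgad, Fermt3 and Lims2, the last with a negative difference (-0.93, adjusted p = 0.0357). The differences of the others were 2.57 for Itga4, 2.32 for Itga10, 4.38 for Itgad and 1.65 for Fermt3. Their adjusted p in that fit were 0.0135, 0.0446, 0.0290 and 0.0352. DESeq2 called 12, where 4.89% of all genes passed. Itgax was the only call that held in every alternative: without C3H injured mouse 2 it alone passed, and 3 genes, Itgax, Itgb2 and Ptk2b, passed without C3H uninjured mouse 3, B6 injured mouse 2, B6 injured mouse 3 or B6 uninjured mouse 1. Itgav and Itgb7 were also lost without B6 injured mouse 1 (adjusted p of 0.0754 and 0.0846) and without B6 uninjured mouse 2 (0.0539 and 0.0710), Itgav without C3H injured mouse 1 (0.0945) and Itgb7 without C3H uninjured mouse 2 (0.0507).

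In uninjured regions, 2 of the 41 genes differed between C3H and B6, against 3.10% of all genes. Lims2 had 2526, 2517 and 3364 in C3H and 1207, 1056 and 1257 in B6, and was higher in C3H by 1.25 (SE 0.19, adjusted p = 0.00375). Itga3 had 433, 314 and 340 in C3H and 125, 83.0 and 216 in B6, and was higher in C3H by 1.45 (SE 0.33, adjusted p = 0.0330). The groups did not overlap for either gene. Every C3H value lay above every B6 value for 3 of the 41 genes and below for 3, against 7.63% and 9.27% of all genes. The 3 below were Itgav, Itgb2 and Itgb7. The Itga3 call was lost in 9 alternatives (adjusted p from 0.0529 to 0.125), among them those without C3H injured mouse 1, C3H injured mouse 2, any of the C3H uninjured mice, B6 injured mouse 2, or B6 uninjured mouse 1 or 2. Without B6 uninjured mouse 3, 4 genes passed, with Parvb (1.09, adjusted p = 0.0212) and Itgb7 (-1.53, adjusted p = 0.0493) added.

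In injured regions, 9 of the 41 genes were higher in C3H than in B6 and none was lower. Of all genes 7.06% differed, 3.72% higher and 3.34% lower. The differences were 5.22 for Itgax (SE 0.40, adjusted p = 2.83e-05), 4.64 for Itgad, 2.41 for Itgb3, 2.13 for Itgb2, 2.04 for Ptk2b, 2.00 for Itga4, 1.32 for Fermt3, 0.96 for Itga5 and 0.95 for Itgav, with adjusted p of at most 0.0439. Every C3H injured value lay above every B6 injured value for 19 of the 41 genes and below for 4, against 24.9% and 24.2% of all genes. They rest on 2 C3H libraries: without mouse 2 only Itgax passed, and 4 and 5 genes passed without B6 injured mouse 1 and B6 injured mouse 2. Fermt3 did not pass with animal as a random block (1.28, adjusted p = 0.0637). The comparisons above share libraries, so their calls are not independent of each other.

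Per kb of merged exons (GENCODE M21 gene models), Itgb1 had the highest level of the 41 genes in each group, 4059 in C3H injured, 2870 in C3H uninjured, 3674 in B6 injured and 3131 in B6 uninjured regions. Itgb2 came next in C3H injured regions, at 2429 per kb, where C3H uninjured regions had 190. In C3H uninjured regions Itgb5 (950 per kb), Lims2 (916) and Fermt2 (885) followed Itgb1. Itgax had 822 per kb in C3H injured regions and 8.68 in C3H uninjured regions, against 20.8 in B6 injured and 5.93 in B6 uninjured regions.

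Apart from the 1 added to each value, ratios of related genes within a library do not depend on its size factor. With the same exception, their changes do not depend on gene length. The added 1 matters most for genes with low counts. The ratios are given as log2 ratios of normalised count + 1, as a description. Fermt3 over Fermt2 averaged -1.17 in C3H injured and -4.45 in C3H uninjured regions, against -2.86 in B6 injured and -3.90 in B6 uninjured regions. Ptk2b over Ptk2 averaged 0.95 in C3H injured and -2.79 in C3H uninjured regions, against -1.31 in B6 injured and -2.37 in B6 uninjured regions. Both C3H injured libraries had more reads of Ptk2b than of Ptk2, and the other 9 had fewer.

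Itga5 over Itga7 was also above 0 in only the C3H injured libraries (0.43 and 1.44), and ranged from -1.85 to -0.68 in C3H uninjured regions. Itgb2 over Itgb1 changed by 3.20 in C3H and 0.47 in B6. Parvg over Parvb changed by 3.90 in C3H and 2.31 in B6. Lims1 over Lims2 averaged 1.29 in C3H injured regions, 0.16 in C3H uninjured, 1.42 in B6 injured and 1.24 in B6 uninjured regions, so that the C3H uninjured libraries stood apart. The shift between collagen chains, Itga11 over Itga1, was 2.00 in C3H and 0.74 in B6.

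**Figure D4:**
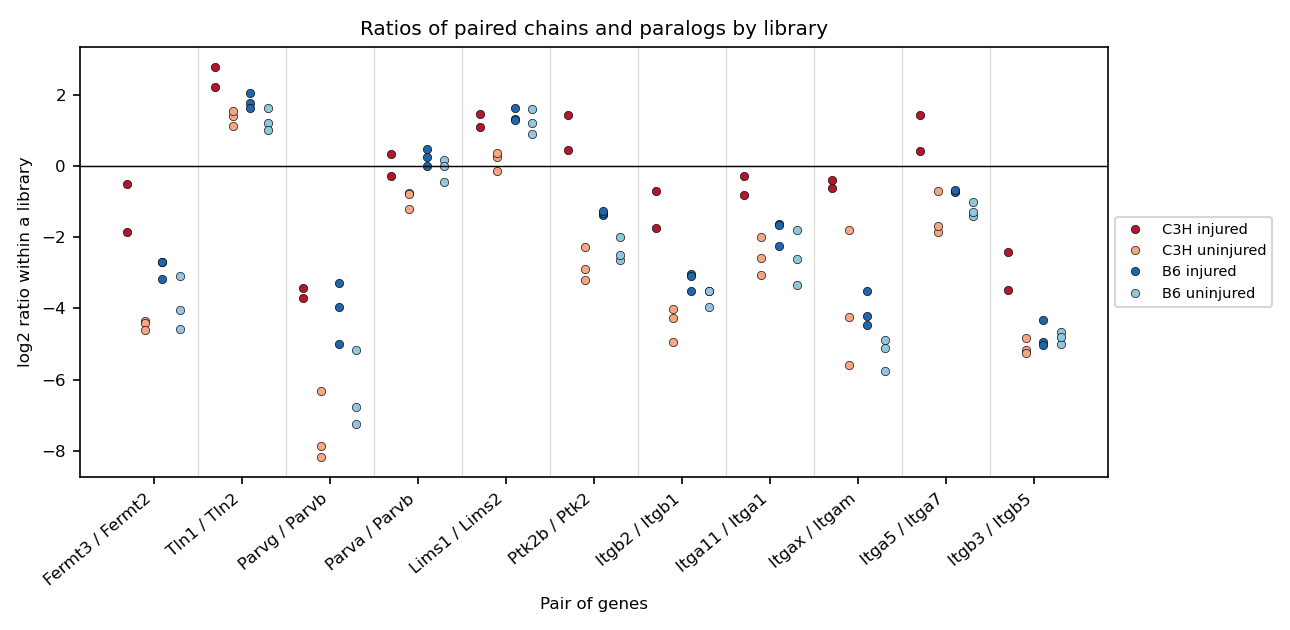
Log2 ratio of 11 pairs of related genes in each library, with C3H injured, C3H uninjured, B6 injured and B6 uninjured libraries from left to right within a pair. Ptk2b over Ptk2 and Itga5 over Itga7 are above 0 in the C3H injured libraries and below 0 in all others.

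Markers of other cells were also counted. Over all genes tested, 15.3% rose and 15.4% fell in C3H injured regions, and 0.0136% passed in B6. Macrophage markers rose for 11 of 12 genes in C3H injured regions, with summed normalised counts of 77976 to 134679 in C3H injured and 14457 to 24394 in C3H uninjured regions, against 39652 to 55979 in B6 injured and 24711 to 36666 in B6 uninjured regions. The largest rises of this list in C3H were those of Cx3cr1 (4.35) and Cd68 (4.09), against a list median of 2.74. All 6 osteoclast markers tested rose, with Atp6v0d2 by 6.58 and Acp5 by 4.81 (sums of 9056 to 27341 in C3H injured and 1027 to 1361 in C3H uninjured regions, against 1563 to 2027 in B6 injured and 1076 to 1584 in B6 uninjured regions).

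Cardiomyocyte markers fell for 8 of 10 genes in C3H (sums of 554354 to 597833 in injured and 1675920 to 2025760 in uninjured regions) and for none in B6 (915263 to 1184100 in injured and 1486240 to 1888760 in uninjured regions). The largest falls in C3H were those of Tnni3 (-2.37) and Myl2 (-2.29). Fibroblast markers rose for 5 of 9 genes in C3H, Col1a1 (3.65) and Postn (3.41) the most. Mural markers rose for 2 of 8 genes, Cnn1 (1.66) and Pdgfrb (1.24), and fell for 1, Des (-0.95). Endothelial markers fell for 2 of 8 genes, Egfl7 (-0.89) and Emcn (-0.85), and neutrophil markers rose for 1 of 6, Csf3r (2.91). The mural, endothelial and neutrophil counts rest on few genes and were not far from the shares of all genes. None of 6 platelet, 7 T and NK cell and 4 B cell markers passed in C3H, and no marker of any list passed in B6. In pieces of tissue, fewer cells of a type and less RNA per cell cannot be told apart, and the part of cell makeup in the results above was not tested.

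Levels of leukocyte adhesion genes were also set against Ptprc, the pan-leukocyte gene CD45, as a description. Ptprc had 2076 to 3156 in C3H injured and 226 to 307 in C3H uninjured regions, against 681 to 1440 in B6 injured and 455 to 581 in B6 uninjured regions. The log2 ratio of Itgax to Ptprc averaged 0.56 in C3H injured and -2.66 in C3H uninjured regions, against -3.31 in B6 injured and -4.17 in B6 uninjured regions. The change of the ratio was 3.22 in C3H and 0.86 in B6, and against the mean of the 12 macrophage markers it was 3.97 in C3H and 1.10 in B6. Itgax was thus higher relative to both in every C3H injured library than in any other library.

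Itgam had log2 ratios to Ptprc of 0.81 and 1.33 in C3H injured regions and of 2.29, 1.60 and -0.25 in C3H uninjured regions, so that the C3H injured values lay between those of uninjured mice 2 and 3. Itgb2 had 1.36 and 1.59 in C3H injured regions and 1.87, 0.76 and 0.69 in C3H uninjured regions, which also overlapped. Itgal had -3.89 and -3.78 in C3H injured regions and -1.87, -2.77 and -1.83 in C3H uninjured regions, and Fermt3 had -1.36 and -0.85 in C3H injured regions and -0.15, -0.34 and -0.33 in C3H uninjured regions, with the C3H injured values lower in each case. Parvg had -3.91 and -4.15 in C3H injured regions and -4.81 to -3.50 in C3H uninjured regions, against -4.21 to -3.11 in B6 injured and -6.33 to -3.98 in B6 uninjured regions, overlapping in both strains. Against the mean of the 12 macrophage markers the picture differed for Itgb2, Parvg and Fermt3. Parvg had -4.86 to -4.44 in C3H injured and -6.04 to -4.96 in C3H uninjured regions, without overlap. Itgal was again lower in C3H injured regions (-4.50 to -4.42) than in C3H uninjured regions (-4.23 to -3.06), and Itgam again overlapped. There the C3H changes were 1.12 for Itgb2, 0.61 for Itgam, 0.89 for Parvg, -0.92 for Itgal and -0.08 for Fermt3. Itgb2 had 0.83 to 0.87 in C3H injured and -0.69 to 0.42 in C3H uninjured regions, without overlap. Fermt3 had -1.90 to -1.56 in C3H injured and -1.80 to -1.56 in C3H uninjured regions, which overlapped.

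**Figure D5:**
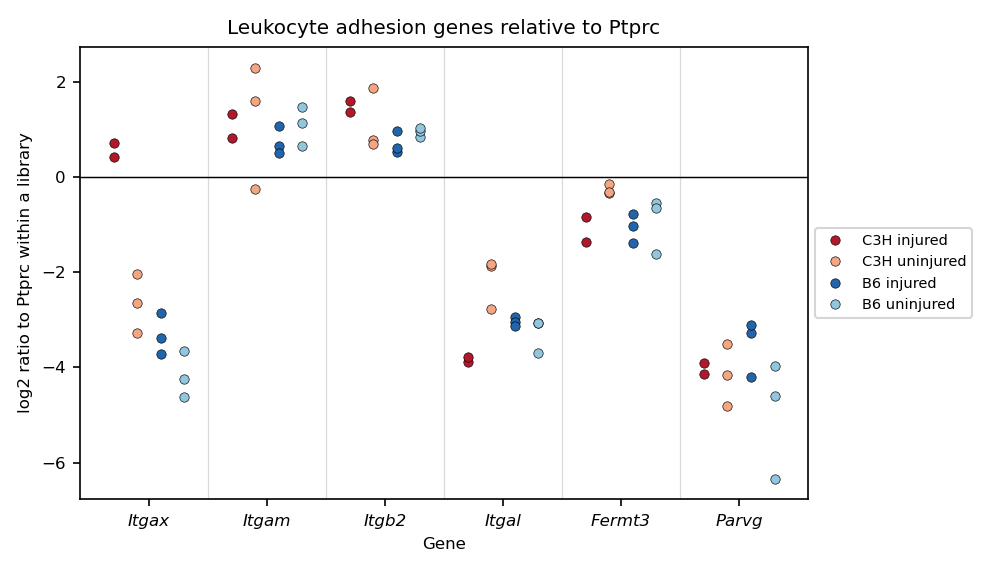
Log2 ratio to Ptprc of 6 leukocyte adhesion genes in each library, with C3H injured, C3H uninjured, B6 injured and B6 uninjured libraries from left to right for each gene. Itgax is above 0 in the C3H injured libraries and below 0 in all others, and Itgal is lowest in the C3H injured libraries.

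Genes around the integrins were read from 3 lists. Of 39 ligand genes tested, 19 rose and 2 fell in C3H injured regions, with a median change of 1.03, against the 15.3% and 15.4% of all genes and their median of 0.015. Spp1, which encodes osteopontin, a ligand of Itgav and Itgb3, had 38801 to 52487 in C3H injured and 160 to 377 in C3H uninjured regions. For B6, values were 641 to 1654 in injured and 266 to 1319 in uninjured regions. Its C3H change was 7.34 (SE 0.59, adjusted p = 2.09e-05) and the difference between the strains 6.56 (adjusted p = 0.00394). Tnn, which encodes the matrix protein tenascin N, rose by 6.55 in C3H (SE 0.99, adjusted p = 0.000757). Vtn, which encodes vitronectin, fell by 1.30 (SE 0.38, adjusted p = 0.0222), and F11r, a junctional ligand of Itgal, fell by 0.90 (SE 0.22, adjusted p = 0.00988). The ligands Postn and Col1a1 are also in the fibroblast list.

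Of 49 other genes of the adhesion complex, 18 rose and 2 fell in C3H (median 0.24). Lpxn, the leukocyte relative of paxillin, had 417 to 794 in C3H injured and 33.7 to 48.8 in C3H uninjured regions (3.71, SE 0.37, adjusted p = 6.09e-05), and Rac2, the Rac of blood cells, rose by 2.93 (SE 0.33, adjusted p = 0.000131). The muscle genes Fhl2 and Nexn fell by 2.03 (SE 0.44, adjusted p = 0.00515) and 1.33 (SE 0.29, adjusted p = 0.00521). Of 31 regulators of integrins, 18 rose and 4 fell (median 1.23). The Src kinase of myeloid cells Fgr rose by 3.70 (SE 0.46, adjusted p = 0.000225) and the leukocyte adaptor Fyb by 3.64 (SE 0.54, adjusted p = 0.000709), while Itgb1bp2, which encodes melusin, the muscle protein that binds the tail of Itgb1, fell by 2.04 (SE 0.29, adjusted p = 0.000519). Rasip1, a regulator of endothelial adhesion, fell by 0.99 (SE 0.23, adjusted p = 0.00790). In B6 none of these 3 lists had a call, with medians of 0.53, 0.25 and 0.43. The injury effect was larger in C3H for 2 ligands, 3 adhesion genes and 2 regulators and smaller for none, against 1.50% of all genes larger and 0.0678% smaller.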

How the data were processed

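The submitters' processing notes name TopHat2 2.0.11, HTSeq 0.6.1, DESeq and build mm9, with no gene annotation, strand setting or DESeq version. Each deposited signal column holds read counts that the authors divided by 1 size factor: 100% of values were whole multiples of 1 step (tolerance 1e-06), which gave back the reads, and recomputed size factors equalled the authors'. Precision follows from 9699985 to 22138459 reads per library. Build mm9 is of B6, and undercounting of C3H reads over variants was not tested.

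The scale of analysis was log2(normalised count + 1), on which changes of low genes are understated. Genes reaching a value of 10 in 2 or more libraries (14751 of 15274) were fitted with limma 3.58.1 in R 4.3.3 (4 group means over all libraries, trended empirical Bayes, 7 residual degrees of freedom), and 5 comparisons were read. The fit was also run on simulated counts with known changes put into the C3H injured libraries alone. Those counts had the same relative spread for every gene and no shared hearts, unlike these data. Alternatives were pseudocounts of 0.5 and 4, no filter, quantile normalization, TMM, the compared groups alone, edgeR 4.0.16 (quasi-likelihood) and DESeq2 1.42.0 on the recovered reads, animal as a block, and each library left out. The labels name the mouse, so same-numbered regions of a strain are of 1 heart. Their residuals correlated at 0.305 and 0.575 in C3H and 0.276, -0.0140 and 0.524 in B6 (0.392 in the random block). Blocked values are printed where they change a call.

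Members and lists were chosen with earlier results of these data known. Values in every library are given for all genes past the threshold in an injury effect or in the difference of these, up to 24, and of each other list the 2 largest changes past the threshold in each direction are named. The files' coordinates are of another build than the reference, so promoters are given in GRCm38.p6 alone.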

Additional observations from a re-analysis of the deposited data

Results flagged for a closer look

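The injury effect differed between the strains by the interaction term for 6 genes, each larger in C3H than in B6. On the log2 scale the difference was 4.76 for Itgax, 3.00 for Itgb2, 2.78 for Itgb7, 2.64 for Itgb3, 2.54 for Ptk2b and 1.29 for Itgav. For Itgb2, Itgb7 and Itgav every C3H uninjured value lay below every B6 uninjured value, although none of them passed there. Their lower C3H uninjured level is thus part of their difference. Itgb7 did not pass in the comparison of injured regions. Within hearts that gave both regions, Itgax was higher in the injured region by 6.86 and 6.71 in C3H mice 1 and 2 and by 1.75, 2.21 and 1.43 in B6 mice 1, 2 and 3. Itgb2 was higher by 2.65 and 4.18 in C3H and by 0.47, 0.88 and 0.75 in B6. For Itgb7 the paired differences were 2.09 and 3.60 in C3H and 0.0066, 0.093 and 1.05 in B6, for Itgb3 they were 2.44 and 3.69 in C3H and 0.38, 1.02 and 0.29 in B6, and for Ptk2b they were 3.08 and 4.03 in C3H and 1.14, 1.51 and 0.78 in B6. Itgav was higher by 1.63 and 1.89 in C3H and by 0.50, 0.50 and 0.44 in B6. In each of the 6 genes both C3H hearts had a larger difference than any of the B6 hearts. The 6 genes were picked by the interaction term on these same libraries. Their paired differences therefore describe that result and are no separate support for it. Some macrophage and osteoclast markers moved with the 6 genes. By the interaction term 5 of 12 macrophage and 2 of 6 osteoclast markers had a larger injury effect in C3H, against 1.50% of all genes. Their median differences were 1.86 and 3.65. In uninjured regions 3 of the 12 macrophage markers were lower in C3H than in B6, against 1.79% of all genes. The part of these markers in the result was not tested, and strain and sex cannot be told apart.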

How the results depend on the processing

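No called gene changed direction under any alternative run. In B6 injured regions the count of 0 became 1 with DESeq2 and with animal as a fixed or random block (replicate block), Itgax each time, and it was 0 without any single library. For the difference between strains the count of 6 became 12 with DESeq2 and 11 with animal as a random block, and ranged from 1 to 6 with a library left out. In uninjured regions the count of 2 became 1 in a fit of the groups compared alone, and ranged from 1 to 4 with a library left out. In injured regions the count of 9 ranged from 1 to 10 with a library left out. In C3H injured regions the count of 21 stayed within 1.5 times under all alternatives (14 to 24). The causes of these moves were not tested, beyond fewer libraries in those left out. Quantile normalization shifted the median change of all genes in C3H injured regions by -0.13 on the log2 scale, to -0.11. Other blocked calls were those given in the text, and animal as a block changed no other call. With 2 C3H injured libraries, and a single one where the other is left out and is assumed to vary like the other groups, these comparisons rest on few animals, and genes such as Itga2 and Itgae rest on few reads.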

Other observations

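Itgb6 had the lowest values of any library in both regions of C3H mouse 2, 9.19 in the injured and 33.5 in the uninjured region. The other 3 C3H libraries had 221 in the injured region of mouse 1 and 570 and 359 in the uninjured regions of mice 1 and 3, and the B6 libraries had 271 to 336 in injured and 357 to 501 in uninjured regions. The injured region was below the uninjured region of the same heart in all 5 hearts that gave both. Itgb6 was singled out after its values were seen. Among the C3H uninjured libraries, that of mouse 2 was also the lowest for Itga6, Itga8 and Itga9, among others. It was the highest for Fermt2 and Lims1, among others.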
